A study of Mus musculus with 9 samples.

Results

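Genes of the interferon response and of nucleic acid sensing were followed in a mouse line of T cell acute lymphoblastic leukaemia (T-ALL) at 3 levels of a human MYC transgene. The 57 genes were taken from a list of interferon-stimulated genes (ISGs) and nucleic acid sensors, matched by gene identifier, out of 53380 rows counted in each of 9 libraries. The line came from tumours of FVB/N mice in which the EμSRα promoter drives the tetracycline transactivator in lymphoid cells, so that all cells carried the transgene and doxycycline repressed it. Cells mock-treated for 48 hours are called MYC on, those given doxycycline at 20 pg/mL for that time MYC intermediate and those given 500 pg/mL MYC off, and each group had 3 libraries. All groups were the same line, and no doxycycline-treated cells without the transgene were analysed here, so an effect of doxycycline itself cannot be told apart from that of MYC.

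Interferons are secreted proteins that warn cells of infection. Cytosolic sensors recognise foreign or misplaced DNA and RNA and signal through the adaptors MAVS and STING to factors of the IRF family, which switch on interferon genes. Interferon then binds its receptors, the kinases JAK1 and TYK2 are activated, and a complex that includes STAT2 and IRF9 binds the interferon-stimulated response element (ISRE) of ISGs, while the GAS element is best known from the response to interferon gamma. T cells respond to interferons but are not their main type I source, and part of this gene set is transcribed at a low basal rate without any added interferon.

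To show what the response elements look like in members described below, the 250 bases before the RefSeq transcription start (GRCm38.p6) of Bst2, Irf2 and Stat2 are printed 5′ to 3′ on the gene's strand. These are the 3 sensor, factor or effector members with such an element in that window that differed most between MYC off and MYC on, among called members with a mean of at least 2 CPM, which is counts scaled to the library total, in 1 group. Capitals mark the ISRE core GAAANNGAAA or its reverse complement TTTCNNTTTC, where N is any base. Bst2 lies on the minus strand (chr8:71537473-71537722), Irf2 on the plus strand (chr8:46739495-46739744) and Stat2 on the plus strand (chr10:128270248-128270497).
Bst2: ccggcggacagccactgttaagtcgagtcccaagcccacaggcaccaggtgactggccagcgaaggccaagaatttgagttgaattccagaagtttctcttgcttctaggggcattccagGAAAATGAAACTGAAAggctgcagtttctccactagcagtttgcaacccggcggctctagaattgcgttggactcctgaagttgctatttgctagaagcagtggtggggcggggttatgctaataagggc
Irf2: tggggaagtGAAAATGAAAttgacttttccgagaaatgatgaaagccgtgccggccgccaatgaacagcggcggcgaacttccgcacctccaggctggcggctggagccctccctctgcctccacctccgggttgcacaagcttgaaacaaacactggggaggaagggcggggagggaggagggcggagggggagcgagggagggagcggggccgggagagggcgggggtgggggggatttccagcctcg
Stat2: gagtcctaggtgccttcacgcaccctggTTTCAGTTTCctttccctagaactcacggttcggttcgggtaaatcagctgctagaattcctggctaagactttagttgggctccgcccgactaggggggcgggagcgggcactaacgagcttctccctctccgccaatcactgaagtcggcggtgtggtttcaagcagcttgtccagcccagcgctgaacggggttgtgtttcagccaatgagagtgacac
The Bst2 window held 2 overlapping cores, which began 130 and 124 bases before the start. The Irf2 core began 241 bases before the start, close to the far edge of the window, and the Stat2 core lay on the opposite strand 222 bases before it.

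Of the 57 members, 43 had such a window, and 14 of those held an ISRE core (32.6%), against 3.46% of 27025 genes with a window. The GAS core TTCNNNGAA, which reads the same on both strands, was in 11 member windows (25.6%) and in 8.13% of all genes. The E-box CACGTG, the site that MYC with MAX is known to bind, was in 1 member window, that of Trim25, and in 6.86% of all genes. An ISRE core was present in 8 of 23 windows of members called higher in MYC off than in MYC on, in 1 of 8 windows of members called lower (Bst2) and in 4 of 6 windows of members that were tested and not called. Among the 6 windows of members with too few counts to be tested, Isg15 held 3 cores and the others none. Where a gene had several windows, the window with the most matches was counted. These are letter matches in a short window and describe the sequences only.

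Depth and the targeted gene set the frame for all values. Totals ran from 18705516 to 29349725 counts in MYC on, from 27010791 to 32222479 in MYC intermediate and from 26933496 to 39678799 in MYC off, and levels are given as CPM. A count of 0 in 1 library allowed a level of up to 0.0756 to 0.16 CPM (3 counts), a limit that covers counting error only. The transgene had 1340.1, 1190.3 and 1249.9 CPM with MYC on, 428, 414 and 383 with MYC intermediate and 4.08, 4.01 and 3.26 with MYC off. The groups did not overlap, and the exact two-sided permutation test of each pair gave p = 0.1, the smallest that 3 libraries against 3 allow.

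T cell markers were abundant in all libraries. The summed level of 11 T cell markers was 3029 to 3113 CPM in MYC on, 5168 to 5331 CPM in MYC intermediate and 6792 to 6986 CPM in MYC off, and each marker was called higher in MYC off than in MYC on. This rise ran beside the interferon genes, and its part in their changes was not tested. B cell and natural killer cell lists of 6 genes each summed to 0.475 CPM or less in every library, with Ms4a1, Ncr1 and Nkg7 at 0. Among 10 macrophage and monocyte markers, Adgre1, Lyz2, Cd14 and the C1q genes were at 0, and the sum of 18.9 to 26.6 CPM was nearly all Csf1r. The plasmacytoid dendritic cell list of 9 genes, which includes the member Bst2, summed to 36.2 to 39.1 CPM in MYC on, 23.9 to 26.4 CPM in MYC intermediate and 23.1 to 25.2 CPM in MYC off, with Siglech, Klk1 and Cd300c at 0. Of this list, Bst2 and Tcf4 were called lower in MYC off than in MYC on, and Ccr9 (log2 2.88) and Il3ra (0.71, a call lost with the replicate block at an adjusted p of 0.0119) were called higher. Of 8 stromal and endothelial genes 4 were at 0, and the list summed to 6.59 to 9.5 CPM. Since the RNA came from bulk cells, a change cannot be told apart between fewer cells with a transcript and less of it per cell.

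A minority of these genes fell when MYC was turned off, and most of the measurable ones rose. Of the 57 members, 31 were called higher in MYC off than in MYC on, 8 were called lower, 7 were tested and not called, and 11 had too few counts to be tested. A gene was called at an adjusted p under 0.01 in edgeR's quasi-likelihood test, adjusted over all 14098 genes tested, of which 27.5% were called higher and 27.4% lower. The share of all members was 54.4% for higher and 14.0% for lower. Shares of members and lists called, here and below, count untested genes as not called unless stated. Those of all genes are over tested genes only. With the replicate number added to the fit as a block, 37 members were called, 31 higher and 6 lower. A difference of more than 2-fold was found in 19 members that were higher and in 2 that were lower, or 33.3% and 3.51% of the members, against 8.72% and 10.8% of all genes tested. The median log2 fold change of the 46 members tested was 0.78 and that of all genes tested 0.03. Members with low levels entered the test only if enough of their libraries had counts, so that this median is a description. Ifit3, Xaf1 and Usp18, called higher, and Samhd1, called lower, entered only with libraries of groups where their levels were higher. Their calls, and their part in the counts above, also in those over 2-fold, are therefore no separate support.

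The levels of the members differed widely. Compared per gene length in the deposited TPM (transcript level scaled to 1 common total per library), 23 members averaged above 10 TPM in MYC on, 27 in MYC intermediate and 27 in MYC off. The highest was Ifngr1, at 651 ± 8.38 TPM in MYC off and 127 ± 1.84 TPM in MYC on (SD, n = 3 each), followed in MYC off by Igtp at 158 ± 6.4 TPM. At the other end, 16 members stayed under 1 CPM in every library and 4 of those, Ifi44, Oas2, Oasl2 and Rtp4, had no count in any.

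**Figure D1:**
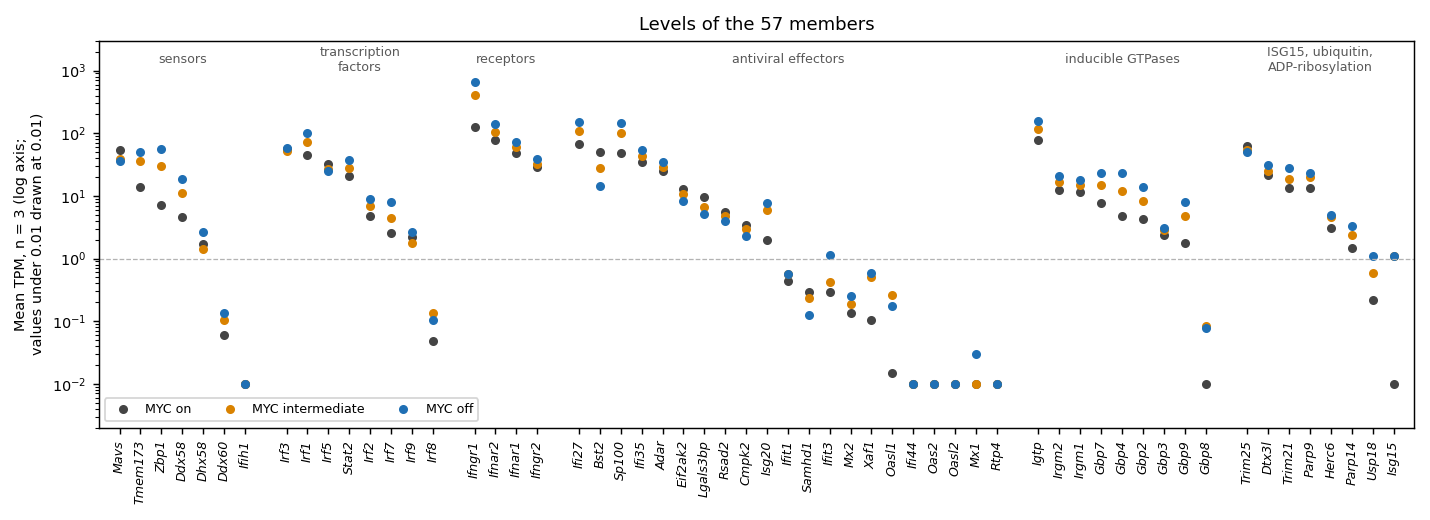
Mean level of each of the 57 members in the 3 groups, in deposited TPM on a log axis, grouped by role and ordered by the MYC on level. In MYC off, Ifngr1, Ifnar2, Sp100, Ifi27, Igtp and Irf1 averaged above 100 TPM, whereas Ifi44, Oas2, Oasl2 and Rtp4 had no count, and means under 0.01 TPM are drawn at 0.01.

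Of the 7 sensing genes, 3 rose, 1 fell, 2 were not called and 1 was not tested. The shares called higher and lower were 42.9% and 14.3%, against 27.5% and 27.4% of all genes tested. Zbp1, a sensor of left-handed nucleic acids that can start necroptosis, had 7.82, 7.38 and 7.02 CPM with MYC on, 30.1, 33.7 and 31.5 with MYC intermediate and 58.1, 60.2 and 59.2 with MYC off. Its libraries separated fully at each level, and its log2 fold change was the largest among the 46 members tested (2.97 ± 0.08 SE between MYC off and MYC on, adjusted p = 1.61e-13 in edgeR). Ddx58 encodes RIG-I, the sensor of short RNA with a triphosphate end. It had 9.74, 11.2 and 8.35 CPM with MYC on, 22.9, 23.1 and 25.5 with MYC intermediate and 37.4, 40.2 and 38.8 with MYC off. The difference between MYC off and MYC on was 1.97 ± 0.10 on the log2 scale (adjusted p = 8.88e-11). Tmem173 encodes STING, the adaptor downstream of the DNA sensor cGAS. Its levels were 9.69, 10.1 and 9.06 CPM with MYC on, 25, 24.2 and 25.1 with MYC intermediate and 35.4, 35.1 and 34.5 with MYC off (1.84 ± 0.08, adjusted p = 2.55e-11).

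The adaptor of RIG-I moved the other way. Mavs, which sits on mitochondria and passes on the signal of RIG-I and MDA5, had 53.1, 50 and 57.7 CPM with MYC on, 36.8, 39.5 and 43.2 with MYC intermediate and 37.9, 34.8 and 37.2 with MYC off. All MYC off libraries lay below all MYC on libraries, and the log2 fold change was −0.58 ± 0.08 (adjusted p = 1.52e-05). Dhx58, the LGP2 regulator of RIG-I-like sensors, averaged 2.55 ± 0.352 CPM in MYC off and 1.64 ± 0.0959 CPM in MYC on (0.60 ± 0.23, adjusted p = 0.0298). Ddx60 stayed at 0.38 CPM or less (1.22 ± 0.53, adjusted p = 0.0547). Ifih1, which encodes the long RNA sensor MDA5, had 1 count in MYC off and 1 in MYC on over all their libraries and was not tested, so neither of its groups exceeded the limit of 3 counts.

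Among the 8 transcription factors, 4 rose and 1 fell. Irf7, the factor that amplifies type I interferon genes, had 2.51, 2.99 and 3.2 CPM with MYC on, 5.09, 4.48 and 5.54 with MYC intermediate and 8.32, 7.95 and 10.5 with MYC off (1.58 ± 0.16 between MYC off and MYC on, adjusted p = 2.78e-07). Irf1, an activator of GAS and ISRE genes that is best known downstream of interferon gamma, had 51.9, 53.3 and 56.8 CPM with MYC on, 78.6, 85.7 and 96.2 with MYC intermediate and 115, 129 and 121 with MYC off (1.13 ± 0.07, adjusted p = 1.79e-09). Neither gene had overlapping groups. Irf2, which competes with IRF1 for its sites, had 9.25, 11.7 and 11 CPM with MYC on, 15.4, 15.6 and 14.8 with MYC intermediate and 21.5, 18.7 and 18.6 with MYC off (0.86 ± 0.11, adjusted p = 4.03e-06).

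The STAT2 and IRF9 subunits of the ISRE-binding complex were not called alike. Stat2 had 32.6, 42.4 and 35.3 CPM with MYC on, 47.1, 50.8 and 52.6 with MYC intermediate and 62.4, 68.2 and 65.8 with MYC off (0.80 ± 0.08, adjusted p = 5.37e-07). Irf9 averaged 4.25 ± 0.283 CPM in MYC off and 3.57 ± 0.501 CPM in MYC on (0.21 ± 0.16, adjusted p = 0.259), and whether the changes of the 2 genes differ was not tested. Irf3, the factor that sensors activate by phosphorylation, averaged 58.7 ± 1.51 CPM in MYC off and 57.2 ± 1.22 CPM in MYC on (0.00 ± 0.06, adjusted p = 0.957), and its libraries overlapped. Irf5, a factor downstream of Toll-like receptors, had 26.6, 30.5 and 27.4 CPM with MYC on, 23.7, 21.3 and 25.7 with MYC intermediate and 20.6, 22.6 and 21.5 with MYC off, and was lower in MYC off (−0.42 ± 0.09, adjusted p = 6.47e-04). Exons of Irf5 overlap the neighbouring gene Tnpo3 over 14.1% of their bases. Irf8, the factor of myeloid and B lineages, stayed at 0.333 CPM or less and was not tested.

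All 4 receptor chains rose, where 27.5% of all genes tested were called higher. Ifngr1, the ligand-binding chain of the interferon gamma receptor, had 107, 109 and 107 CPM with MYC on, 359, 344 and 360.3 with MYC intermediate and 563, 545 and 554 with MYC off. That is a 5.02-fold higher level in MYC off than in MYC on (log2 2.33 ± 0.05, adjusted p = 2.01e-14), with replicates within a few percent of each other. Its partner Ifngr2 changed far less, with 28.2, 27.3 and 28.5 CPM with MYC on, 31.7, 33.1 and 30.6 with MYC intermediate and 35.5, 41.1 and 36.6 with MYC off (0.39 ± 0.08, adjusted p = 3.33e-04). Per gene length, Ifngr1 stood at 651 ± 8.38 TPM and Ifngr2 at 38.1 ± 3.24 TPM in MYC off, against 127 ± 1.84 and 28.5 ± 0.516 TPM in MYC on (SD, n = 3 each).

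The chains of the type I receptor rose by less than 2-fold. Ifnar2 had 74.8, 77.1 and 76.4 CPM with MYC on, 100.2, 104 and 106 with MYC intermediate and 134, 141 and 137 with MYC off (0.82 ± 0.05, adjusted p = 1.61e-09). Ifnar1 had 89.4, 83.2 and 85.5 CPM with MYC on, 105, 105 and 106 with MYC intermediate and 129.8, 126 and 126 with MYC off (0.53 ± 0.06, adjusted p = 8.11e-07). No groups overlapped for either chain. Ifnar2, Ifnar1 and Ifngr2 lie in this order on the plus strand of chromosome 16 between positions 91372783 and 91565623 (mm10), while Ifngr1 lies alone on chromosome 10.

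**Figure D2:**
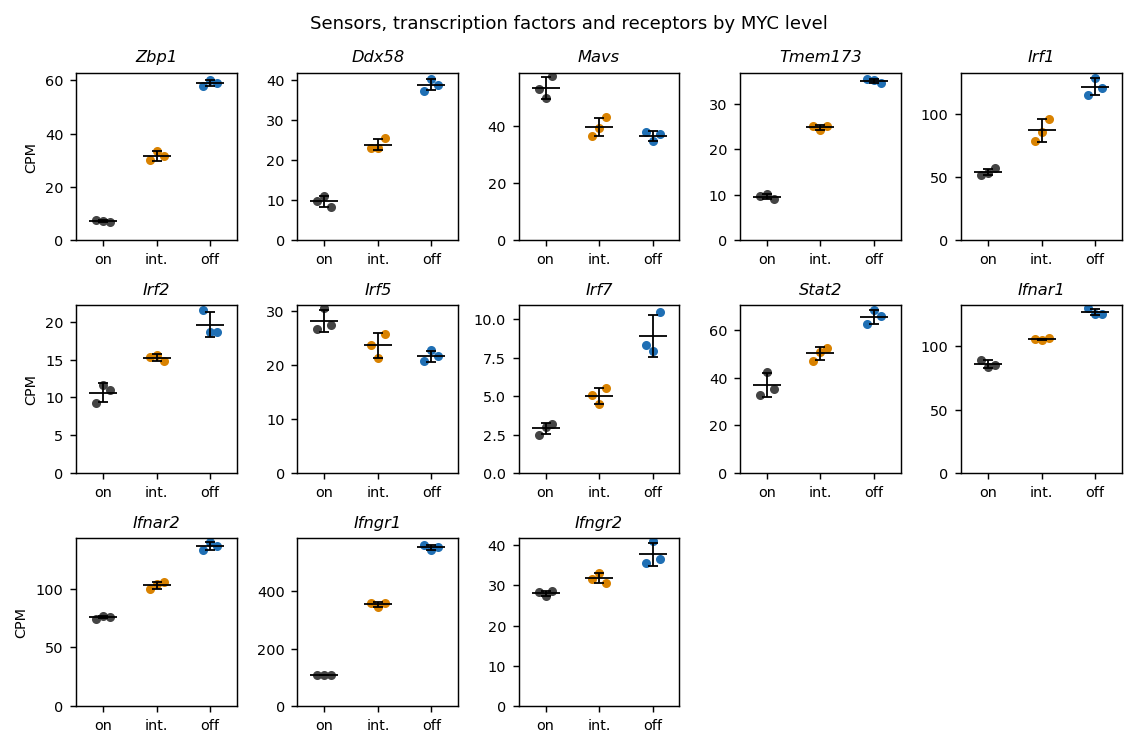
CPM of the sensors, transcription factors and receptor chains described with per-library values, in MYC on, MYC intermediate (int.) and MYC off. Points are libraries, and horizontal lines and bars give the mean and SD (n = 3). Zbp1 and Ifngr1 show the steepest steps, and Mavs and Irf5 run downward.

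Of the 21 antiviral effectors, 7 were called higher in MYC off than in MYC on and 5 lower, 2 were tested and not called, and 7 were not tested. Of the 14 tested, the 7 called higher and the 5 called lower are larger shares than the 27.5% and 27.4% of all genes tested. Whether these shares differ was not tested. Over all 21, with the untested effectors counted, the shares were 33.3% and 23.8%. Sp100, a nuclear body component that restricts DNA viruses, had 113, 111 and 101 CPM with MYC on, 231, 217 and 234 with MYC intermediate and 324, 342 and 324 with MYC off (1.57 ± 0.06, adjusted p = 2.92e-12). Isg20, an exonuclease that degrades viral RNA, had 1.13, 1.07 and 1.06 CPM with MYC on, 2.61, 3.48 and 4.04 with MYC intermediate and 5.37, 3.53 and 4.15 with MYC off (1.98 ± 0.23, adjusted p = 2.11e-06). Its MYC off and MYC intermediate libraries overlapped. Ifi27, which encodes a small interferon-induced membrane protein, had 31.3, 29.6 and 28.6 CPM with MYC on, 47.1, 49.2 and 50.3 with MYC intermediate and 66.4, 66.0 and 64.3 with MYC off (1.11 ± 0.07, adjusted p = 1.21e-09).

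The other effectors that rose were either modest or rare. Adar, the enzyme that edits adenosine in double-stranded RNA and so keeps self RNA from the sensors, averaged 84.6 ± 4.26 CPM in MYC off and 59.3 ± 2.56 CPM in MYC on (0.48 ± 0.06), with 16.8% of its exon bases overlapped by Chrnb2. Ifi35 averaged 28.0 ± 2.0 CPM in MYC off and 17.7 ± 0.417 CPM in MYC on (0.62 ± 0.09), with 16.8% of its exon bases overlapped by Gm11626. Xaf1, a promoter of cell death, stayed under 1 CPM, with 0.818 ± 0.0877 CPM in MYC off and 0.144 ± 0.0853 CPM in MYC on (log2 2.42 ± 0.42), and was not tested at 1 CPM in 3 libraries. Ifit3, a partner of the RNA-binding protein IFIT1, averaged 0.586 ± 0.224 CPM in MYC off and 0.152 ± 0.0817 CPM in MYC on (1.91 ± 0.53, adjusted p = 0.00533). Its call was lost on leaving out MYC on replicate 2 or 3 or MYC off replicate 2 or 3 (adjusted p = 0.0121 to 0.0389) and in DESeq2 (0.0163), and it was not tested at 1 CPM in 3 libraries or after thinning. Of its 50-base stretches, 51.2% also occur in Ifit3b.

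Of the effectors that fell, 3 had clear differences. Bst2 encodes tetherin, which holds budding virus at the cell surface. It had 13.8, 11.6 and 14.9 CPM with MYC on, 7.94, 8.11 and 6.86 with MYC intermediate and 4.49, 3.86 and 3.52 with MYC off, with no overlap between any groups. The difference between MYC off and MYC on was −1.80 ± 0.14 on the log2 scale (adjusted p = 2.16e-08), and its promoter window above holds 2 ISRE cores. Eif2ak2, the RNA-activated kinase PKR that stops translation, had 19.0, 20.3 and 19.6 CPM with MYC on, 16.9, 16.5 and 17.0 with MYC intermediate and 13, 13.3 and 12.0 with MYC off (−0.65 ± 0.09, adjusted p = 6.86e-06). Lgals3bp, a secreted galectin-binding glycoprotein, had 6.99, 7.32 and 9.81 CPM with MYC on, 5.34, 5.78 and 5.75 with MYC intermediate and 3.63, 4.98 and 4.37 with MYC off (−0.95 ± 0.15, adjusted p = 5.92e-05).

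Both nucleotide enzymes of the list sat close to the threshold. Cmpk2, a mitochondrial nucleotide kinase, had 3.89, 4.76 and 3.88 CPM with MYC on, 4.22, 3.59 and 3.38 with MYC intermediate and 2.29, 2.86 and 3.39 with MYC off (−0.59 ± 0.18, adjusted p = 0.00811). It was no longer called in a fit with the replicate block (adjusted p = 0.0103), with library-size scaling (0.0137) or after thinning (0.0107), nor without MYC on replicate 1, 2 or 3, MYC intermediate replicate 2 or MYC off replicate 1 or 2 (0.0114 to 0.0409). Samhd1, which degrades the nucleotides that reverse transcription needs, had 0.492, 0.962 and 0.954 CPM with MYC on, 0.59, 0.777 and 0.592 with MYC intermediate and 0.454, 0.223 and 0.348 with MYC off (−1.22 ± 0.37, adjusted p = 0.00926). Its call was lost with the replicate block (adjusted p = 0.0144), in DESeq2 (0.0215), in limma voom (0.0119), with library-size scaling (0.0109) and without MYC on replicate 2 or 3, MYC off replicate 2 or 3 or any of the MYC intermediate replicates 1 to 3 (0.011 to 0.0585). It was called in 7 of the 18 fits that tested it, and a filter of 1 CPM in 3 libraries removed it.

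The remaining effectors were not called or had few or no counts. Rsad2, the viperin gene that neighbours Cmpk2 on chromosome 12, averaged 5.23 ± 0.924 CPM in MYC off and 7.03 ± 0.708 CPM in MYC on (−0.45 ± 0.15, adjusted p = 0.0172). Ifit1 stayed at 0.662 CPM or less (0.37 ± 0.44, adjusted p = 0.484). Mx1 and Mx2, of the family of dynamin-like antiviral GTPases, stayed at 0.095 and 0.38 CPM or less and the oligoadenylate synthetase family gene Oasl1 at 0.444 CPM or less, and none of them was tested. Mx2 is annotated as a polymorphic pseudogene in GENCODE M21. Ifi44, Oas2, Oasl2 and Rtp4 had 0 counts in all 9 libraries.

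The interferon-inducible GTPases moved in 1 direction where they were called. In MYC off, 7 of the 9 were called higher than in MYC on and none lower, Gbp3 was not called, and Gbp8 was not tested. The share called higher was 77.8%, against 27.5% of all genes tested. Guanylate-binding proteins coat vacuoles and bacteria, and Gbp4 had 11.7, 11.2 and 9.51 CPM with MYC on, 27.4, 25 and 27.3 with MYC intermediate and 46.9, 55.2 and 52.2 with MYC off (2.22 ± 0.10, adjusted p = 1.53e-11). Gbp9 had 2.8, 2.57 and 2.73 CPM with MYC on, 6.05, 8.48 and 8.15 with MYC intermediate and 11, 13.7 and 11.9 with MYC off (2.13 ± 0.15, adjusted p = 5.96e-09). Both had 3 fully separate groups. Gbp2 had 3.05, 4.28 and 2.32 CPM with MYC on, 6.3, 5.92 and 6.65 with MYC intermediate and 10.5, 11.1 and 9.91 with MYC off (1.71 ± 0.17, adjusted p = 2.54e-07). Gbp7 had 14.7, 12.2 and 11.9 CPM with MYC on, 26.0, 24.1 and 25.5 with MYC intermediate and 42.8, 36.5 and 39.2 with MYC off (1.58 ± 0.10, adjusted p = 1.96e-09). Of its exon bases, 11.3% are overlapped by Gm43802.

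These genes lie in clusters of related copies. Gbp7, Gbp3 and Gbp2 lie in this order on the plus strand of chromosome 3 (142530342 to 142638008, mm10), and Gbp8, Gbp9 and Gbp4 on the minus strand of chromosome 5 (105014150 to 105139586). Members of a cluster are thus not independent of each other in position, and between 2.03% and 18.1% of the 50-base stretches of these 6 genes are also in another gene, so that reads may have been split between copies. Within the chromosome 3 cluster, Gbp3 averaged 3.0 ± 0.0993 CPM in MYC off and 2.28 ± 0.236 CPM in MYC on (0.38 ± 0.17, adjusted p = 0.0686). Gbp8 had 0 counts in the MYC on libraries and 8 counts in all of MYC off.

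The immunity-related GTPases rose as well. Igtp had 45.1, 48.3 and 45.7 CPM with MYC on, 67.1, 72.1 and 76.4 with MYC intermediate and 92.2, 97.7 and 95.5 with MYC off (1.00 ± 0.06, adjusted p = 1.20e-09). Irgm2, which overlaps Igtp on chromosome 11, averaged 23.0 ± 1.74 CPM in MYC off and 13.7 ± 0.402 CPM in MYC on (0.71 ± 0.10), and Irgm1 averaged 31.2 ± 2.71 CPM in MYC off and 19.8 ± 0.433 CPM in MYC on (0.62 ± 0.09). All 3 belong to the regulatory IRGM group, which keeps effector GTPases of the family off the cell's own membranes.

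ISG15 is a ubiquitin-like protein that is joined to others during the response, and its own gene was all but silent. Isg15 had 0 counts in all MYC on libraries, 14, 4 and 5 counts in MYC intermediate and 8, 4 and 12 counts in MYC off. Against the limit that 3 counts over the whole MYC on group allow, it was at least 5.57-fold higher in MYC off and at least 5.96-fold higher in MYC intermediate, at levels of 0.434 CPM or less. It did not pass the filter on low counts and so has no p in the test. Of the 8 alternatives that tested it (no filter, or 1 library left out), 7 called it higher in MYC off than in MYC on (adjusted p = 2.32e-04 to 0.00804), and the one without MYC on replicate 3 did not (0.0127). Between MYC intermediate and MYC on it was not called without MYC on replicate 1 or 3 (0.0106 and 0.0163). With 0 counts in MYC on, it entered these fits only through the groups where it is higher. The calls rest on the same few counts and are no separate support. Usp18, which removes ISG15 and restrains the type I receptor, averaged 0.911 ± 0.453 CPM in MYC off and 0.18 ± 0.156 CPM in MYC on (2.17 ± 0.57, adjusted p = 0.00366), a call lost without MYC on replicate 1 or MYC off replicate 2 (0.0133 and 0.0213), and at 1 CPM in 3 libraries it was not tested.

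The ubiquitin and ADP-ribosylation genes were expressed and mostly rose. Parp14 had 3.94, 4.01 and 4.36 CPM with MYC on, 6.86, 7.18 and 6.09 with MYC intermediate and 10.4, 7.69 and 9.12 with MYC off (1.11 ± 0.15, adjusted p = 6.45e-06). Parp9 had 18.0, 20.2 and 19.4 CPM with MYC on, 28.6, 28.8 and 31.6 with MYC intermediate and 33.7, 32.3 and 33.4 with MYC off (0.76 ± 0.08, adjusted p = 5.27e-07). Its product forms a complex with the ubiquitin ligase of the neighbouring gene Dtx3l. Dtx3l had 34.5, 36.8 and 38.7 CPM with MYC on, 46.4, 41.0 and 43.9 with MYC intermediate and 53.8, 56.6 and 52.0 with MYC off (0.53 ± 0.08, adjusted p = 1.83e-05). Parp14, Dtx3l and Parp9 share 1 locus on chromosome 16 (35832874 to 35972605, mm10), where exons of Dtx3l and Parp9 overlap over 8.0% and 9.4% of their bases.

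The ubiquitin ligases of the TRIM family were split. Trim21, an intracellular antibody receptor, had 14.4, 16.7 and 13.5 CPM with MYC on, 19.1, 20.5 and 23.0 with MYC intermediate and 29.1, 31.7 and 31.1 with MYC off (1.01 ± 0.09, adjusted p = 1.34e-07). Trim25, a ubiquitin ligase known for a part in RIG-I signalling, had 103, 109.5 and 114 CPM with MYC on, 88.4, 96.9 and 92.2 with MYC intermediate and 79.7, 86.1 and 90.3 with MYC off (−0.39 ± 0.06, adjusted p = 4.48e-05). It is the member with the E-box in its window. Herc6, the ligase that joins ISG15 to proteins in mice, had 8.76, 8.45 and 7.77 CPM with MYC on, 13, 11.9 and 13.3 with MYC intermediate and 13.2, 13.7 and 14.3 with MYC off (0.69 ± 0.10, adjusted p = 1.66e-05), with 13.7% of its exon bases overlapped by Gm45193. The MYC intermediate and MYC off libraries of Herc6 overlapped.

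**Figure D3:**
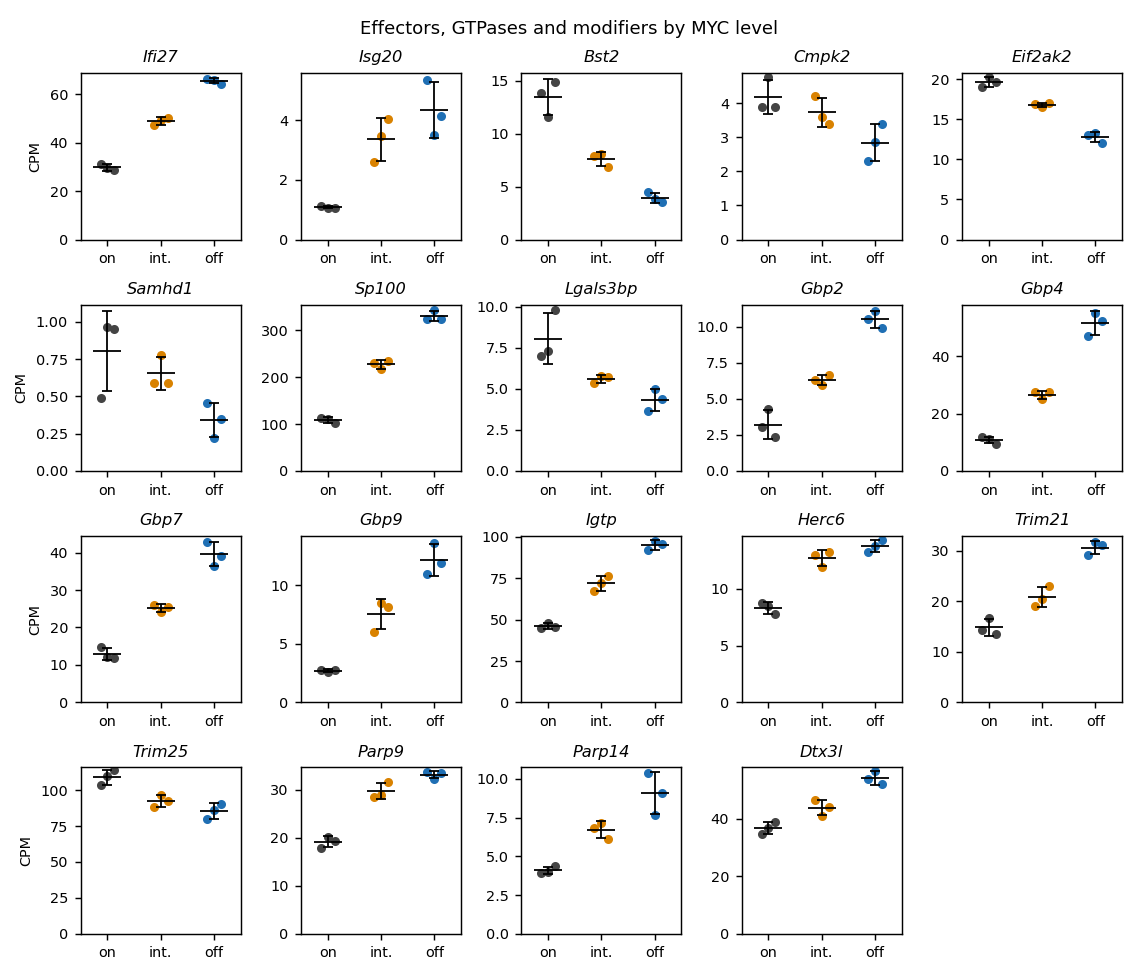
CPM of the effectors, interferon-inducible GTPases and ubiquitin or ADP-ribosylation genes described with per-library values, in MYC on, MYC intermediate (int.) and MYC off. Points are libraries, and horizontal lines and bars give the mean and SD (n = 3). The 5 GTPases run upward with 3 groups that do not overlap, whereas Bst2, Eif2ak2 and Lgals3bp run downward.

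**Figure D4:**
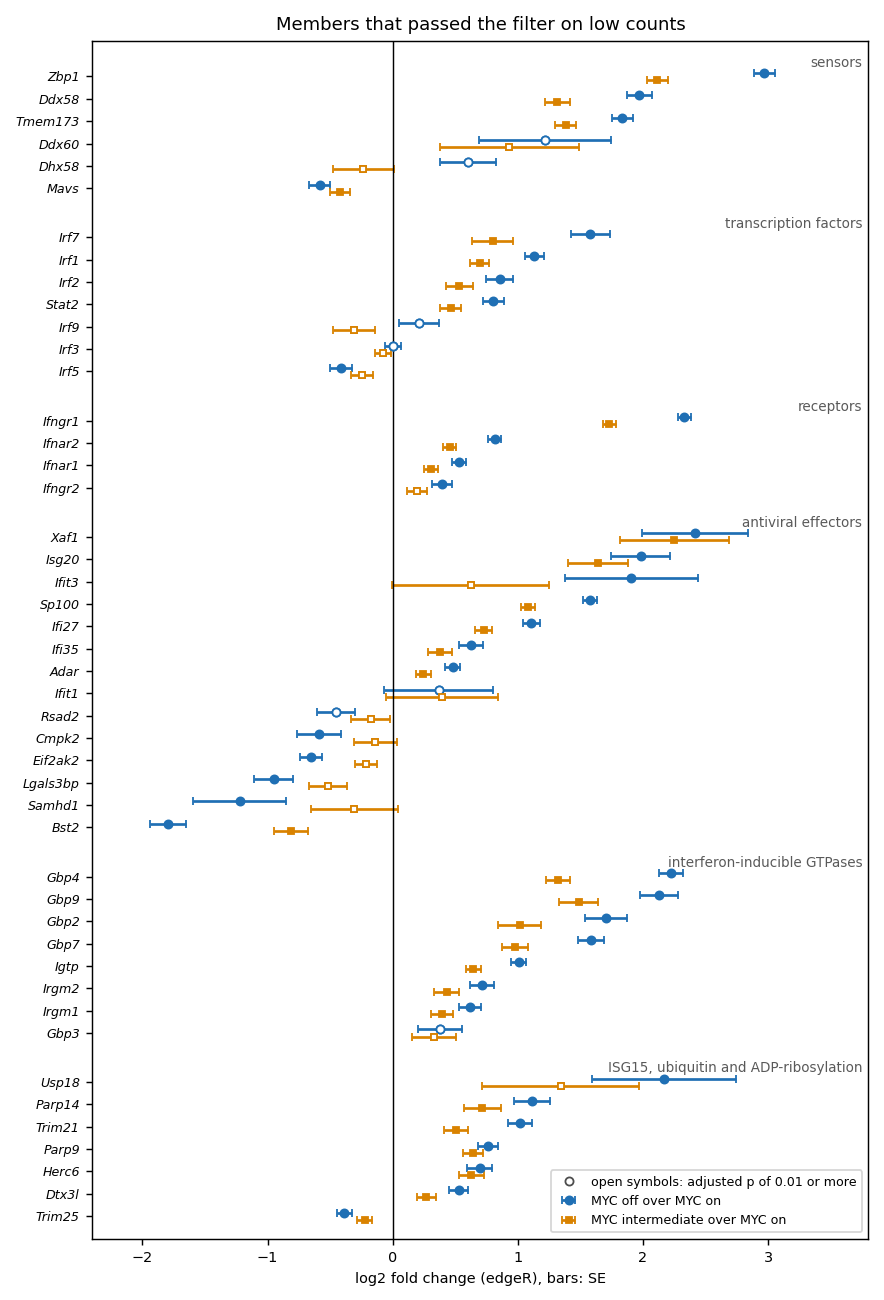
Log2 fold changes of the 46 tested members by role, for MYC off over MYC on (circles) and MYC intermediate over MYC on (squares), with SE from edgeR. Open symbols did not reach an adjusted p of 0.01, and both contrasts use the same MYC on libraries. For MYC off over MYC on, receptors and GTPases lie right of 0, and the effectors spread from 2.42 (Xaf1) to −1.80 (Bst2).

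A partial loss of MYC already moved most of these genes. Between MYC intermediate and MYC on, 28 members were called higher and 3 lower (Mavs, Bst2 and Trim25), which is 49.1% and 5.26% of the 57, where 17.4% and 17.2% of all genes tested were called. Between MYC off and MYC intermediate, 19 were called higher and 2 lower (Bst2 and Eif2ak2), or 33.3% and 3.51%, where 9.95% and 14.7% of all genes tested were called. The first of these comparisons shares its MYC intermediate libraries with the second. The call of Trim25 at the first step was lost on leaving out MYC on replicate 2 or 3, MYC intermediate replicate 1 or 3 or MYC off replicate 2 (adjusted p = 0.0159 to 0.0361) and with no filter (0.0167).

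At both steps 18 members were called higher, among them Zbp1, Ddx58, Tmem173, Irf1, Irf7, Ifngr1, Ifnar2, Sp100, Ifi27, Gbp4, Gbp7, Igtp and Trim21. Bst2 was the member called lower at both. How many of all genes tested were called at both steps, or at the first only, was not counted. The numbers of members given here therefore stand without a background share. The call of Stat2 between MYC off and MYC intermediate was lost without replicate 1 or 2 of MYC intermediate or replicate 2 or 3 of MYC off (adjusted p = 0.0129 to 0.0273), and that of Ifnar1 without any 1 library of either group (0.0118 to 0.0375) or with no filter (0.0319). Adar lost it without MYC on replicate 2 or any 1 library of MYC intermediate or MYC off (0.0105 to 0.0379), with no filter (0.0379) and with the 6 libraries alone (0.0131). These 3 steps were small, at most 0.34 on the log2 scale. Gbp2 lost it without MYC intermediate replicate 2 or MYC off replicate 2 (0.0114 and 0.0116), and Gbp9 without MYC off replicate 2 (0.0109). Dhx58, called higher in MYC off than in MYC intermediate (0.84 ± 0.22, adjusted p = 0.00823) but not between the other groups, lost the call without any 1 library except MYC intermediate replicate 3 (0.0106 to 0.0431), in DESeq2 (0.0103), with the 6 libraries alone (0.0203) and after thinning (0.0223). In 10 members, among them Isg20, Herc6, Parp9 and Irf2, MYC intermediate was called higher than MYC on, and the step between MYC off and MYC intermediate was not called. Mavs and Trim25 were called lower at the first step and not called at the second. A call at 1 step alone does not show that the steps differ. At that first step, Irgm1 and Irgm2 lost the call without MYC on replicate 2 (0.0105 and 0.0109) and Ifi35 without MYC on replicate 1, 2 or 3 or MYC intermediate replicate 2 or 3 (0.0104 to 0.0275). Dtx3l lost it without MYC on replicate 1 or 2, MYC intermediate replicate 1 or 3 or MYC off replicate 2 or 3 (0.0115 to 0.0496), in DESeq2 (0.0102), in limma voom (0.0119), with the replicate block (0.0105) and with RLE or library-size scaling, no filter or the 6 libraries alone (0.011 to 0.0197). Adar lost it without MYC on replicate 1 or 2 or MYC intermediate replicate 2 (0.0119 to 0.0221). No member was called in opposite directions at the 2 steps.

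The steps were compared directly by setting MYC intermediate against the midpoint, in log2 units, of MYC off and MYC on. Here 4 members were called higher and 0 lower, where 1.7% and 0.184% of all genes tested were called. An unadjusted p under 0.05 was found in 16 members. The share of all genes tested with such a p was not counted, so that this number stands without a background share. The 4 were Zbp1 (0.63 ± 0.07, adjusted p = 3.92e-05), Ifngr1 (0.56 ± 0.04, 1.24e-06), Tmem173 (0.46 ± 0.07, 7.82e-04) and Sp100 (0.29 ± 0.05, 0.00249). In these genes the larger part of the log2 change between MYC off and MYC on was already present at MYC intermediate. The call of Sp100 was lost without MYC intermediate replicate 1 or 3 (adjusted p = 0.0106 and 0.0102).

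The position of MYC intermediate was expressed as its log2 change from MYC on, divided by that of MYC off from MYC on. Over the 21 members called between MYC off and MYC on with more than a 2-fold difference, the median was 0.642. Of these, Ifit3, Samhd1, Xaf1 and Usp18 did not reach 1 CPM in 3 libraries, and over the other 17 the median was 0.643, with a range from 0.452 for Bst2 to 0.828 for Isg20. Over all 2746 such genes it was 0.556, and over the 1229 of those that were higher in MYC off it was 0.657, beside 0.643 for the 19 members in the same direction. This difference between members and other genes was not tested.

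**Figure D5:**
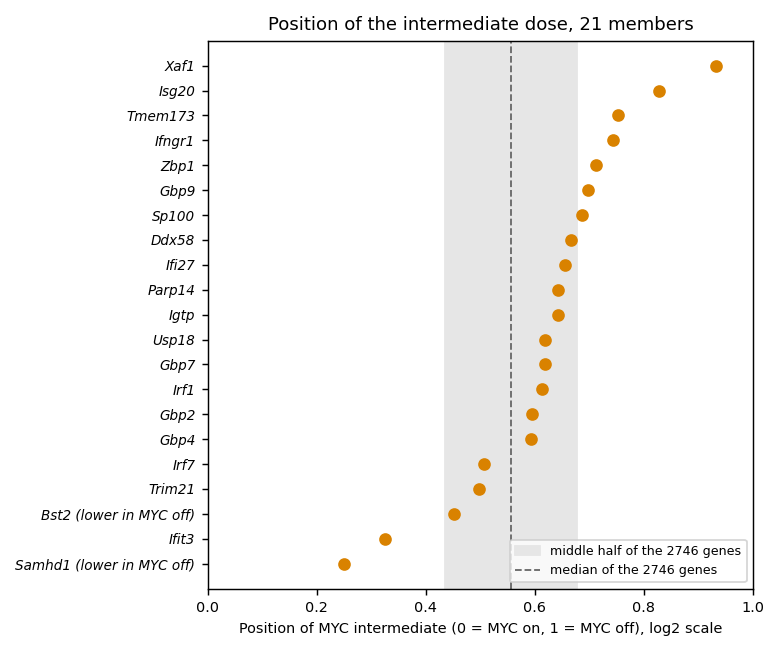
Position of MYC intermediate, in log2 units, where MYC on is 0 and MYC off is 1, for the 21 members with more than a 2-fold difference. The grey band runs between the quartiles of all 2746 genes with such a difference (0.434 to 0.677) and the dashed line marks their median of 0.556. Of the 21 members, 17 lie above 0.5, and Bst2, Ifit3 and Samhd1 lie lowest.

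Genes upstream and beside the members were taken from further lists. Of 11 interferon genes, 10 had 0 counts in every library, including Ifnb1, Ifng and the 4 alpha genes looked at. The remaining one, Ifnk, had 0.0984, 0.374 and 0.239 CPM with MYC on, 0.155, 0.259 and 0.313 with MYC intermediate and 0.403, 0.52 and 0.633 with MYC off (1.08 ± 0.45, adjusted p = 0.0475). None of the 11 was called, Ifnk being the 1 gene tested and the 1 with an unadjusted p under 0.05. Exons of Ifng overlap Gm49751 over 25.9% of their bases.

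Among 18 other receptor, kinase, STAT and brake genes, 10 were called higher in MYC off than in MYC on and 1 lower (55.6% and 5.56%, against 27.5% and 27.4% of all genes tested). The 1 called lower was Il10rb (−0.47 ± 0.14, adjusted p = 0.00915). Its call was lost with the replicate block (adjusted p = 0.0109) and was made in 7 of 19 fits. Jak1, the kinase shared by the type I and gamma receptors, had 271, 286 and 267 CPM with MYC on, 408, 416 and 461 with MYC intermediate and 569, 585 and 553 with MYC off (1.02 ± 0.06, adjusted p = 2.70e-10). Its partner Tyk2 averaged 45.4 ± 1.07 CPM in MYC off and 46.2 ± 1.35 CPM in MYC on (−0.06 ± 0.08, adjusted p = 0.508). Socs3, a brake on cytokine receptors, averaged 2.54 ± 0.373 CPM in MYC off and 0.239 ± 0.032 CPM in MYC on (3.37 ± 0.32, adjusted p = 1.90e-07). The factor Irf4 was also higher, with 2.02 ± 0.503 CPM in MYC off and 0.907 ± 0.15 CPM in MYC on (1.09 ± 0.25, adjusted p = 0.00132).

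Of 23 other sensing and signalling genes, 3 were called higher and 1 lower, and 11 were not tested. Of the 12 tested, the 3 called higher lie near the 27.5% of all genes tested, and the 1 called lower lies below the 27.4%. Over all 23 genes, with the untested ones counted, the shares were 13% and 4.35%. The DNA sensor gene Cgas averaged 21.7 ± 1.25 CPM in MYC off and 24.9 ± 1.63 CPM in MYC on (−0.23 ± 0.08, adjusted p = 0.0286), while Aim2, Tlr3 and Tlr9 had 0 counts. Trim56, a ligase of the STING pathway, averaged 14.5 ± 0.305 CPM in MYC off and 5.84 ± 1.19 CPM in MYC on (1.28 ± 0.17, adjusted p = 6.91e-06). Traf3, the signalling scaffold below MAVS, averaged 40.7 ± 3.22 CPM in MYC off and 78.9 ± 6.18 CPM in MYC on (−0.99 ± 0.07, adjusted p = 8.79e-09). The scaffold Tank and the kinase Tbk1 were higher by 0.61 ± 0.10 and 0.20 ± 0.06 on the log2 scale. The call of Tbk1 was lost without any 1 library of MYC off or MYC on (adjusted p = 0.0113 to 0.0189) or with no filter (0.0415).

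Of 69 other ISGs, 20 were called higher and 2 lower, and 28 were not tested. Of the 41 tested, the 20 called higher are a larger share than the 27.5% of all genes tested. The 2 called lower are a smaller share than the 27.4%. Over all 69 genes, with the untested ones counted, the shares were 29.0% and 2.90%. Those with the largest rises were Ly6c2 (2.78 ± 0.27), Slfn2 (2.57 ± 0.23) and Uba7, the activating enzyme of ISG15 (2.17 ± 0.15). Uba7 averaged 30.9 ± 7.13 CPM in MYC off and 6.67 ± 0.42 CPM in MYC on, while Isg15 itself stayed at 0.434 CPM or less. Ifi30, a lysosomal thiol reductase of antigen processing, averaged 2.11 ± 0.106 CPM in MYC off and 8.31 ± 1.25 CPM in MYC on (−2.02 ± 0.18, adjusted p = 8.68e-08). In this list 10 genes had 0 counts everywhere, among them Oas1a, Ifitm3, Iigp1 and Cxcl9.

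Genes that clear nucleic acids from the cell were the list with more falls than rises. Of 9, 4 were called lower in MYC off than in MYC on and 1 higher (44.4% and 11.1%, against 27.4% and 27.5% of all genes tested). Pnpt1 and Supv3l1, which degrade mitochondrial RNA, averaged 78.8 ± 1.95 and 29.7 ± 1.63 CPM in MYC off and 146 ± 8.27 and 54.4 ± 1.23 CPM in MYC on (−0.92 ± 0.06 and −0.90 ± 0.07). Ttc37, a part of the cytosolic complex that feeds RNA to the exosome, averaged 65.8 ± 2.73 CPM in MYC off and 129.6 ± 4.22 CPM in MYC on (−1.01 ± 0.06, adjusted p = 8.69e-10). Rnaseh2a, the catalytic subunit of the nuclease that removes RNA from DNA hybrids, averaged 111 ± 2.22 CPM in MYC off and 165 ± 3.72 CPM in MYC on (−0.60 ± 0.06). Trex1 was listed at 0 in every library, but all of its exon bases overlap the gene Atrip, so that this value says nothing of its level.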

How the data were processed

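RNA of 9 libraries (3 per MYC level) had been copied from polyadenylated RNA with oligo(dT) priming by a kit that does not mark strand. The submitters' notes name cutadapt 1.16, STAR 2.5.4b, featureCounts and mm10, and the annotation release and strand setting are not given in the sources used here. The authors deposited 1 table per library with raw counts, and the deposited TPM values served only to compare levels between genes. GENCODE M21 (mm10) matched 53274 of 53380 identifiers and gave symbols, positions and overlaps. Promoter windows came from RefSeq (GRCm38.p6).

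Counts of all 9 libraries entered 1 fit in edgeR 4.0.16 (R 4.3.3, quasi-likelihood F test, TMM scaling, default count filter, no replicate block). Tests were two-sided and adjusted by the Benjamini-Hochberg method over 14098 genes, with calls at an adjusted p under 0.01, and the SE is the log2 fold change over the root of F. DESeq2 1.42.0, limma 3.58.1 (voom), RLE or library-size scaling, other filters, a replicate block, 6 libraries only, thinning to the shallowest library, an adjusted p under 0.05 and leaving out each library were the alternatives. Changes are relative to the scaled library totals. The script was tested on simulated data. No source says that replicates were separate cultures, so that p-values reflect only how these libraries varied, which may be technical.

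Same-numbered libraries of MYC off and MYC on deviated together from their group means (r = 0.375, 0.253 and 0.219 over 9944 genes, which are not independent), those of MYC intermediate and MYC on less so (0.13, −0.18 and −0.16), and of MYC off and MYC intermediate in part (0.37, 0.03 and 0.08). The numbers may therefore mark pairs for MYC off against MYC on, which is read from the data and not from the labels. The values reported come from the fit without the block, which was run as an alternative. Blocked values stand beside the results of members whose call between MYC off and MYC on they change. Counts over the further lists are those without the block.

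Per-library values are given for up to 5 called members per role with the largest change and at least 2 CPM in 1 group, for every member called against most of its role group, and for members called in opposite directions at the 2 steps. From each further list, up to 4 called genes are named, with Jak1, Tyk2 and the interferon genes, and some genes of these lists are not reported here by name. Cgas, Dhx58, Rsad2, Isg15 and other members outside this rule are given by mean or range. The members and lists were chosen with earlier results of these data known.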

Additional observations from a re-analysis of the deposited data

How the results depend on the processing

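The counts of members called kept within 1.5 times of the reported ones under every alternative, except that at an adjusted p under 0.05 the members called lower numbered 5 between MYC intermediate and MYC on and 4 between MYC off and MYC intermediate, against 3 and 2. On leaving out 1 library, 36 to 40 members were called between MYC off and MYC on (30 to 32 higher, 6 to 8 lower), 26 to 33 between MYC intermediate and MYC on and 15 to 20 between MYC off and MYC intermediate, the last below the reported 21 in each case. The fit with the replicate block called 37 members between MYC off and MYC on (31 higher, 6 lower), 31 between MYC intermediate and MYC on and 21 between MYC off and MYC intermediate, and it changed the calls of Cmpk2 and Samhd1 between MYC off and MYC on and of no other member in that comparison. The position of MYC intermediate ran from 0.613 (library size only) to 0.674. No log2 fold change of a named gene changed sign with a call, and values of named genes under the alternatives kept their side of the threshold in 2647 cases, lost a call in 73 and gained one in 24. Scaling by library size only moved the median of all genes between MYC off and MYC on to 0.06 and that of the members to 0.81. Genes under about 1 CPM (Ifit3, Samhd1, Xaf1, Usp18, Isg15) rest on few counts.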
